A study of Homo sapiens with 4 samples.

Results

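The BCL2 family of apoptosis regulators was examined in NK-92 cells, a human natural killer (NK) cell line grown in suspension with interleukin 2, after knockdown of the RNA-editing enzyme ADAR1. The 10 members are 4 anti-apoptotic genes (BCL2, BCL2L1, MCL1 and BCL2A1), 2 effectors (BAX and BAK1) and 4 BH3-only genes (PMAIP1, BBC3, BCL2L11 and BID). They were chosen by name from the 20323 genes of the deposited table, with earlier results of these data known, and all 10 were found. RNA was sequenced from 4 libraries. In 2 of them, here NK scramble, the cells carried a lentiviral hairpin with a scrambled sequence (shscramble in the labels), and in the other 2, here NK shADAR1, a lentiviral hairpin against ADAR1. All cells were therefore transduced and kept in interleukin 2, and both groups stem from a single cell line. The labels number the libraries of each group 1 and 2, and these numbers were read as replicates, although shADAR1-1 and shADAR1-2 are also hairpin names in the study, whose text gives shADAR1-2 cells for the sequencing. Where 2 values are given for a group, that of replicate 1 comes first, and the NK scramble libraries are called controls.

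Proteins of this family decide whether the outer mitochondrial membrane stays closed. BAX and BAK1 can assemble into pores that release cytochrome c, the anti-apoptotic proteins bind and restrain them, and the BH3-only proteins, which share a single short domain with the rest, either occupy the anti-apoptotic proteins or activate the effectors. In NK cells, cytokines such as interleukin 2 and interleukin 15 are known to keep cells alive in part through BCL2 and MCL1. The question these members address is whether cells given the ADAR1 hairpin carry a different set of survival and death transcripts.

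The libraries held 37881704 to 39960491 estimated counts. CPM below are counts scaled for sequencing depth with the TMM factors of edgeR, and compare libraries. FPKM, the deposited values scaled for depth and transcript length, compare genes. ADAR itself was at 655 and 682 CPM in the controls, against 575 and 482 CPM after knockdown. On the log2 scale this was -0.34 ± 0.20 (standard error), with an adjusted p of 1.00 in edgeR. Both knockdown libraries therefore lay below both controls, but the decrease did not pass the test. The study itself reported reduced ADAR1 in its NK-92 knockdown cells by qRT-PCR and western blotting. All 17 NK cell markers examined passed the count filter, and their summed level was 4396 and 4927 FPKM in NK scramble and 5027 and 4685 FPKM in NK shADAR1 replicates 1 and 2. Of 7 T cell markers, 6 stayed under 1 FPKM in every library, while CD3E was at 396 to 554 FPKM. The summed markers of B cells, myeloid cells and epithelial cells reached at most 7.80, 6.73 and 0.270 FPKM. Mitochondrially encoded genes took 3.90% to 4.75% of counts. In bulk RNA, fewer cells of a type and less RNA per cell cannot be told apart. Across genes, r was 0.981 within each group and 0.981 to 0.989 between groups, so replicates were no closer to each other than to the other group.

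All 10 members were detected and passed the count filter. Per transcript length, MCL1 was the most abundant at a mean of 93.5 FPKM over the 4 libraries, and its lowest value, 78.6 FPKM, lay above the highest value of any other member. BAX (mean 55.5 FPKM), BID (54.0 FPKM) and BAK1 (51.9 FPKM) followed, and neighbours in this group had overlapping ranges, so their order is not resolved. BCL2L1, which encodes BCL-XL, came next at 32.3 to 40.3 FPKM and overlapped neither BAK1 above it nor PMAIP1 below it. PMAIP1 (14.0 to 31.5 FPKM) and BCL2 (10.4 to 22.2 FPKM) overlapped, as did BCL2 and BCL2L11 (6.97 to 12.3 FPKM). BBC3 at 2.70 to 4.58 FPKM and BCL2A1 at 1.21 to 1.59 FPKM were the least abundant and did not overlap each other. In these cells the transcripts of the anti-apoptotic group were thus mostly MCL1 and BCL2L1, with little BCL2A1.

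**Figure D1:**
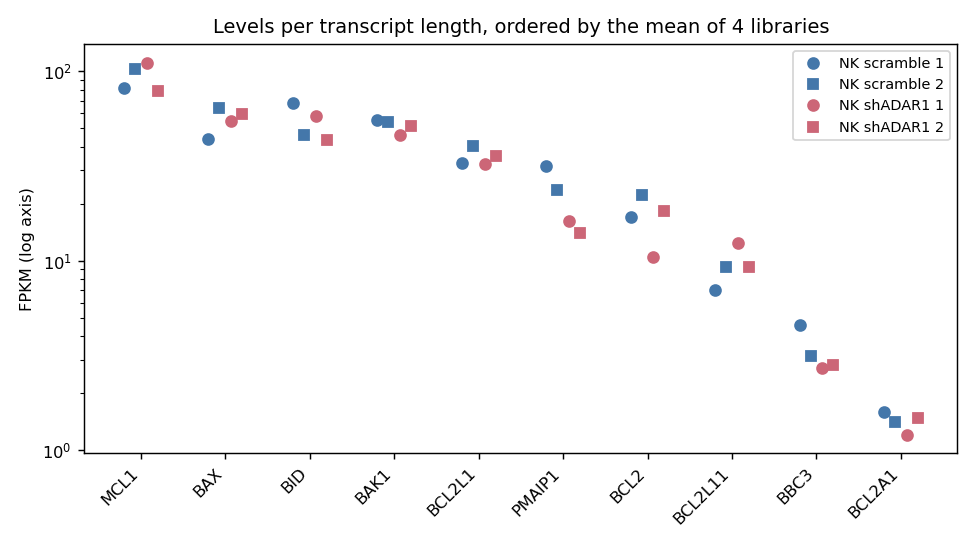
Deposited FPKM of the 10 members (log axis) in each library, with circles for replicate 1, squares for replicate 2, blue for NK scramble and red for NK shADAR1, ordered by the mean of the 4 libraries. MCL1 stands above all other members (78.6 to 111 FPKM) and BCL2A1 is lowest (1.21 to 1.59 FPKM).

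Between NK shADAR1 and NK scramble cells, PMAIP1 showed the largest difference of the family, at 0.545 of the control level, while the other 9 members had log2 fold changes between -0.49 and 0.36. None of the 10 members was called by edgeR's quasi-likelihood test at a 1.5-fold difference and an adjusted p below 0.05. This was also the case for every other gene, so that 0% of 11810 tested genes were called. DESeq2 likewise called 0 of 15605 genes. The study, however, reported differentially expressed genes with that tool at the same threshold, and the reason for the discrepancy was not tested. At an unadjusted p under 0.05, 1 of 10 members passed, PMAIP1, against 2.48% of all tested genes in either direction (0.779% of tested genes lower and 1.70% higher). By DESeq2, 0 members were called after adjustment, and 1 passed without it, against 1.85% of all genes. The median log2 fold change was -0.16 over the 10 members and 0.000028 over all tested genes. Of the members, 8 had a log2 fold change below 0 and 2, BAX and BCL2L11, above 0.

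**Figure D2:**
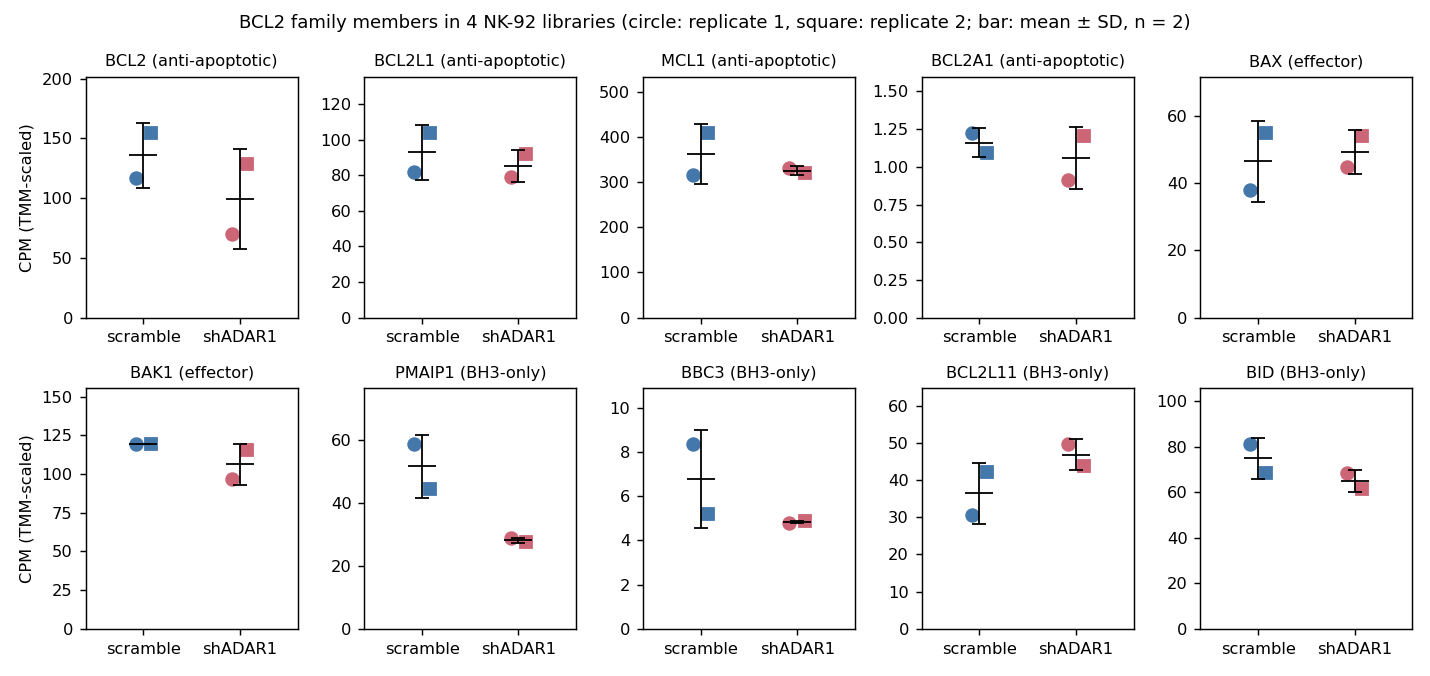
CPM of each member in the 4 libraries (circle for replicate 1, square for replicate 2, horizontal line and bars for the mean ± SD of 2 libraries), with axes from 0. PMAIP1 had 58.7 and 44.4 CPM in NK scramble against 28.7 and 27.4 CPM in NK shADAR1.

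PMAIP1 encodes NOXA, a BH3-only protein that binds MCL1 by preference and promotes its degradation, and its transcription is known to respond to p53 and to the stress factors ATF3 and ATF4. It had 58.7 and 44.4 CPM in the controls, against 28.7 and 27.4 CPM after knockdown. Both knockdown libraries were thus close to each other and well below both controls, and the groups did not overlap. The means were 51.6 ± 10.1 and 28.1 ± 0.889 CPM (SD, n = 2). On the log2 scale the difference was -0.88, with a standard error of 0.21 and a 95% interval from -1.35 to -0.40. Its unadjusted p in edgeR was 0.00197, the 6th smallest of 11810 genes, and the adjusted p was 1.00 in edgeR and 0.477 in DESeq2. With each library left out in turn the log2 fold change lay between -1.07 and -0.67. The deposited FPKM gave the same picture, with 31.5 and 23.6 FPKM in the controls, against 16.1 and 14.0 FPKM after knockdown.

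PMAIP1 (ENSG00000141682) is annotated by GENCODE release 29 (GRCh38) at chr18:59899948-59904306, plus strand. Since it was the member with the largest difference and since ATF factors are among its known regulators, the bases upstream of its start are shown, from RefSeq (GRCh38.p14), as chr18:59899746-59899947, plus strand. Capitals mark TGACG, the core of ATF/CREB sites, here read on the opposite strand and beginning 55 bases before the RefSeq start.
PMAIP1: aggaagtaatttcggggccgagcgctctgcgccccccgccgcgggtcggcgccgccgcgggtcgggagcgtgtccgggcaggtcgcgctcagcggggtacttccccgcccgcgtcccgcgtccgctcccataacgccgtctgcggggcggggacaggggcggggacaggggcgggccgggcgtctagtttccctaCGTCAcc
The core was searched on both strands of the 250 bases before each start. It occurred in 21.2% of 35116 RefSeq promoters and in 4 of the 9 members with an entry (MCL1 had none), and the full palindrome TGACGTCA occurred in 1.65% of promoters and in no member. For every motif here the share counts promoter entries, whereas a member was counted if any of its entries matched. BCL2L1 and BID have multiple entries, so member counts and shares are not like for like. The other BCL2L1 entry lacked the core. A match of this kind is a description of letters and not evidence of binding. For comparison, 30-base windows around the core in the other 3 members are given 5′ to 3′ on the strand of the gene, namely chr18:63319977-63320006 (minus) for BCL2, chr19:48954729-48954758 (plus) for BAX and chr20:31724147-31724176 (minus) for BCL2L1.
BCL2: cctgccggcggcCGTCAgcgctcggagcgg
BAX: tggacagtcacgTGACGggaccaaacctcc
BCL2L1: ctatatataaacTGACGgacggatgaaata
These 3 members had log2 fold changes of -0.45, 0.086 and -0.12, so members with the core lay on both sides of 0. The E-box CACGTG, which MYC can bind, was present upstream of BAX, BBC3 and BID (6.34% of promoters). BCL2A1 was the only member with an interferon-type GAAA repeat (3.02% of promoters), the STAT-type element TTCNNNGAA (6.57%) or the C/EBP-ATF element TGATGNAA (3.14%). The core is part of the full palindrome, and in BAX it overlaps an E-box.

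Of the other BH3-only genes, BBC3 encodes PUMA, a p53 target that binds all anti-apoptotic members. It had 8.36 and 5.22 CPM in the controls, against 4.81 and 4.87 CPM after knockdown. The groups did not overlap, but NK scramble replicate 2 was close to both knockdown libraries. Its log2 fold change stood at -0.49 (adjusted p = 1.00 in edgeR, standard error 0.32) and became -0.11 without NK scramble replicate 1. BCL2L11 encodes BIM, which binds all anti-apoptotic members and is held down by cytokine signals in lymphocytes. It was at 30.6 and 42.2 CPM in the controls, against 49.7 and 43.8 CPM after knockdown, the only member for which both knockdown libraries lay above both controls. The log2 fold change stood at 0.36 (adjusted p = 1.00 in edgeR, standard error 0.22, 95% interval from -0.13 to 0.85) and was 0.14 without NK scramble replicate 1. BCL2L11 shares 727 exonic bases with the lincRNA gene MIR4435-2HG on the opposite strand, and the counting is not stated to use strand, so reads of these bases cannot be told apart.

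BID, which is cleaved by caspase 8 and granzyme B to a form that activates BAX and BAK1, had 81.2 and 68.6 CPM in the controls, against 68.5 and 61.3 CPM after knockdown. The groups touched without overlapping, since NK scramble replicate 2 and NK shADAR1 replicate 1 were nearly equal, and they overlapped under RLE or upper quartile scaling, with the filter on a mean of at least 50 counts and in FPKM. Its log2 fold change was -0.21 (standard error 0.20), -0.083 without NK scramble replicate 1 and -0.33 without NK scramble replicate 2. The 4 BH3-only members together therefore held both the lowest and the highest log2 fold change of the 10 members. Their summed level was 111 and 81.9 FPKM in the controls, against 89.5 and 69.6 FPKM after knockdown, with overlapping groups. Summed as CPM, which is not scaled for length, they gave 179 and 160.5 in the controls, against 152 and 137 after knockdown. On this scale the groups did not overlap, but the separation rests on PMAIP1. That gene entered the sum with 58.7 and 44.4 CPM in the controls, against 28.7 and 27.4 CPM after knockdown.

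For the anti-apoptotic members the 2 groups overlapped in every case. MCL1, a short-lived protein needed for NK cell survival, had 316 and 410 CPM in the controls, against 333 and 320 CPM after knockdown. Its log2 fold change was -0.16 with a 95% interval from -0.62 to 0.30, and the difference between the control libraries exceeded that between the groups. BCL2L1 had 82.0 and 104 CPM in the controls, against 78.8 and 91.7 CPM after knockdown, a log2 fold change of -0.12 (95% interval -0.59 to 0.34). It shares 1424 exonic bases with the antisense gene ABALON, whose reads could be counted with it. BCL2, the founding member, was more uneven, with 117 and 155 CPM in the controls, against 70.0 and 129 CPM after knockdown. The low value was that of a single knockdown library. The log2 fold change of BCL2 was -0.45 (standard error 0.28), -0.077 without NK shADAR1 replicate 1 and -0.96 without NK shADAR1 replicate 2. BCL2A1, a target of NF-kappa B that is induced on activation in many leukocytes, had 49 and 43 estimated counts in the controls and 36 and 45 after knockdown. At this depth its 95% interval ran from -1.19 to 0.93 on the log2 scale, so a 2-fold decrease was not excluded.

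Neither effector passed the test. BAX had 38.01 and 55.1 CPM in the controls, against 44.8 and 54.0 CPM after knockdown, a log2 fold change of 0.086 (95% interval -0.43 to 0.60). In both groups replicate 2 was higher than replicate 1. BAK1 had 119 CPM in both control libraries and 96.7 and 116 CPM after knockdown. Both knockdown libraries were lower, replicate 2 by little, and the log2 fold change was -0.17 (95% interval -0.61 to 0.27). It was -0.046 without NK shADAR1 replicate 1 and -0.31 without NK shADAR1 replicate 2. For 6 members (BCL2L1, MCL1, BAX, BAK1, BCL2L11 and BID) the 95% interval lay within -1 and 1. For 9 of the 10 the interval held 0.

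**Figure D3:**
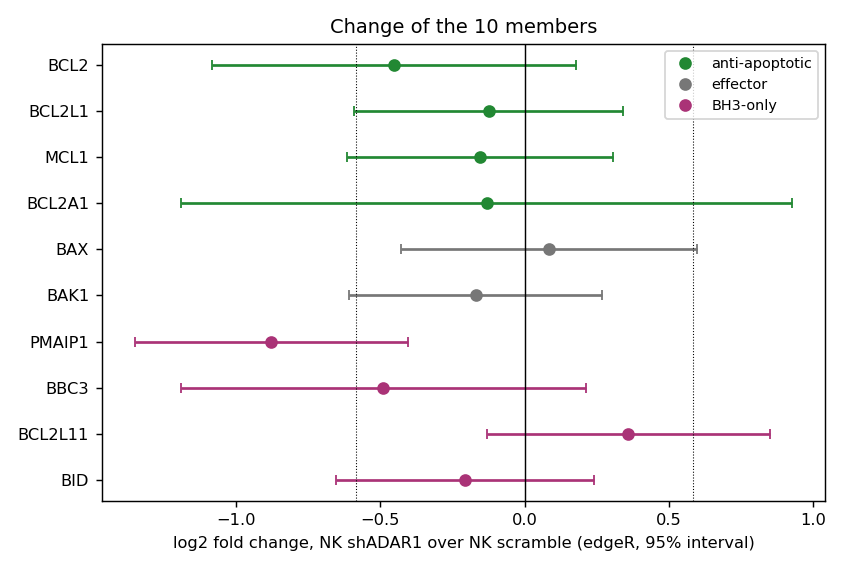
Log2 fold change of each member in NK shADAR1 over NK scramble libraries (edgeR, n = 2 per group) with its 95% interval, colored by role. Dotted lines mark a fold change of 1.5 in either direction. The interval of PMAIP1 (-1.35 to -0.40) lies below 0, and those of the other 9 members span it.

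In all, the groups did not overlap for 5 of 10 members, 4 of them lower in NK shADAR1 cells (PMAIP1, BBC3, BAK1 and BID) and 1 higher (BCL2L11). Over all tested genes this was so for 26.0%, with 12.6% lower and 13.3% higher. With 2 libraries against 2, the smallest two-sided p of an exact permutation test is 0.333, and no such test was used. The members were not evenly spread over the libraries. NK scramble replicate 1 had the highest CPM of 5 members and the lowest of 3, MCL1, BAX and BCL2L11. NK scramble replicate 2 had the highest CPM of 4 members and NK shADAR1 replicate 1 that of BCL2L11. NK shADAR1 replicate 1 had the lowest CPM of 5 members, BCL2, BCL2L1, BCL2A1, BAK1 and BBC3, and NK shADAR1 replicate 2 that of 2, PMAIP1 and BID. Without NK shADAR1 replicate 1 the median log2 fold change over the members was -0.062, and without NK shADAR1 replicate 2 it was -0.27.

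The deposited counts and FPKM did not move together for every member. Dividing each gene's share of the counts by its FPKM gives the transcript length that the authors' processing assumed in that library. For MCL1 this length was 3917 and 3925 bases in NK scramble and 3110 and 3938 bases in NK shADAR1 replicates 1 and 2. NK shADAR1 replicate 1 thus had the highest MCL1 level by FPKM (111, against 81.6, 103 and 78.6 in the other libraries) without having the highest CPM. The annotated MCL1 transcripts of GENCODE release 29 run from 1099 to 3932 bases. For BID the implied lengths were 1204 and 1469 bases in NK scramble and 1219 and 1365 bases in NK shADAR1 libraries, so here the replicates differed and the groups did not separate. For PMAIP1 the 4 lengths were within 2.65% of each other and for BAK1 within 0.0353%. Among 9630 tested genes with at least 100 counts in each library, the median range of this length over the libraries was 5.43%, and 9.23% of genes exceeded 25%, as MCL1 did at 26.6%. Whether these lengths reflect isoform use was not tested, since the deposited values are per gene.

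**Figure D4:**
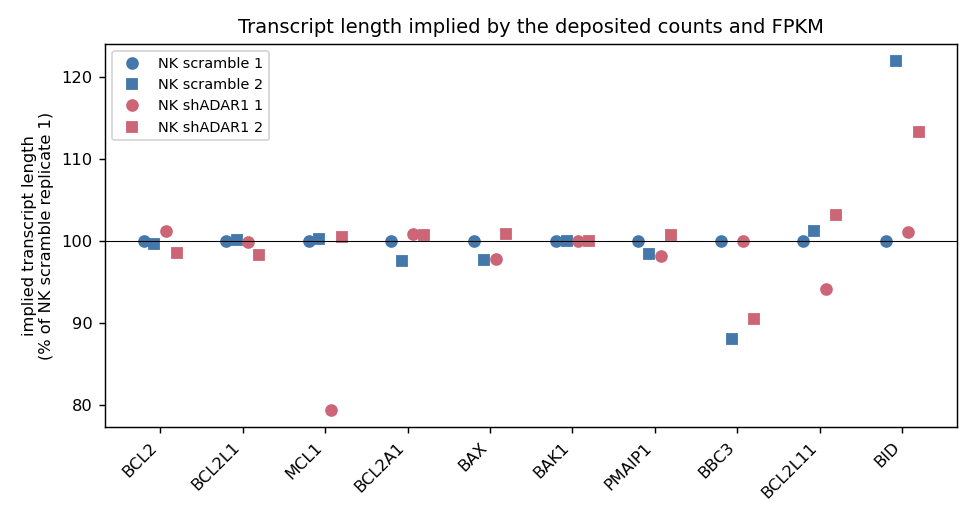
Transcript length implied by the deposited counts and FPKM for each member, as a percentage of its value in NK scramble replicate 1 (circle for replicate 1, square for replicate 2, blue for NK scramble, red for NK shADAR1). MCL1 departs in a single library, NK shADAR1 replicate 1, and BID separates replicate 2 from replicate 1 in both groups.

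The genes around the family were read from 6 lists, none of which held a gene called by edgeR after adjustment. Of 16 further family members, 13 were tested, with 1 higher and 1 lower at an unadjusted p under 0.05 and a median log2 fold change of -0.088. BECN1, an autophagy gene with a BH3 domain (mean 58.9 FPKM), had a log2 fold change of 0.0099. BMF, a BH3-only gene at a mean of 52.7 FPKM (BID was at 54.0 FPKM), had 166 and 199 CPM in the controls, against 278 and 198 CPM after knockdown, with the groups overlapping. BCLAF1, a nuclear protein named for its binding to BCL2 family proteins, had 118 and 95.6 CPM in the controls, against 188 and 126 CPM after knockdown (log2 fold change 0.56, adjusted p = 1.00 in edgeR, and 0.24 without NK shADAR1 replicate 1). BCL2L14 had the largest fold change, -1.81, at 0.376 and 0.280 CPM in the controls, against 0.102 and 0.0803 CPM after knockdown. BIK and HRK were listed at 0 in all 4 libraries.

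Downstream of the mitochondria, all 13 genes of the caspase and apoptosome list were tested, 12 of them (all but CASP6) with a log2 fold change below 0, a median of -0.15, and 0 with an unadjusted p under 0.05. CASP6 was barely detected, at 0.077 to 0.226 FPKM over the libraries. It was also the 1 gene of the 13 for which the groups did not overlap, against 26.0% of all tested genes. None of the 13 was lower without overlap. Their summed level was 418 and 448 FPKM in the controls, against 361 and 425 FPKM after knockdown, with overlapping groups. CYCS, which encodes cytochrome c, had 217 and 267 CPM in the controls, against 151 and 233 CPM after knockdown, with the groups overlapping. The low value was again that of replicate 1, and the log2 fold change of -0.33 became -0.054 without this library. Of 10 genes for inhibitor of apoptosis proteins and their antagonists, 8 were tested, with 1 higher and 0 lower at an unadjusted p under 0.05. BIRC6, a very large inhibitor of caspases, was the higher gene, with 42.5 and 33.6 CPM in the controls, against 94.7 and 53.6 CPM after knockdown. Its log2 fold change stood at 0.96 (adjusted p = 1.00 in edgeR, standard error 0.28) and 0.49 without NK shADAR1 replicate 1. XAF1, an interferon-induced antagonist of XIAP, was at 44.2 and 35.2 CPM in the controls, against 34.9 and 7.77 CPM after knockdown. Its log2 fold change was -0.90 with an adjusted p of 1.00 in edgeR, and without NK shADAR1 replicate 1 it was -2.35 with an adjusted p of 0.00798. Without NK shADAR1 replicate 2, the library with the low value, it was -0.19. BIRC5 (survivin) and DIABLO, abundant in these cells at means of 86.4 and 38.6 FPKM, had log2 fold changes of -0.067 and -0.18.

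Among 13 genes for outer membrane partners and mitochondrial dynamics, 0 had an unadjusted p under 0.05 and the median log2 fold change was -0.049. The channel genes VDAC1 and VDAC3 were the most abundant (means of 340 and 225 FPKM) at log2 fold changes of -0.11 and 0.0091, and OPA1 and DNM1L, which act in fusion and fission, had 0.38 and 0.32. Of 15 genes for partners in the turnover and binding of members, 14 were tested with a median of -0.011 and 0 with an unadjusted p under 0.05. USP9X, a deubiquitinase that stabilizes MCL1, had 90.3 and 89.7 CPM in the controls, against 142 and 98.1 CPM after knockdown, the high value being that of replicate 1. MARCHF5, a mitochondrial ubiquitin ligase, had 33.7 and 32.8 CPM in the controls, against 26.0 and 27.9 CPM after knockdown (log2 fold change -0.30, standard error 0.20). TPT1 and YWHAZ, the most abundant of the list, had log2 fold changes of -0.17 and 0.10.

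The list of 18 transcription factors known to act on family genes had 15 tested genes, 12 with a log2 fold change below 0 and a median of -0.14. In 5 of them both knockdown libraries lay below both controls, and in 0 above, against 12.6% and 13.3% of all tested genes. They are ATF3, ATF4, MYC, DDIT3 and STAT3, the last 2 named after their values were seen. ATF3, a stress-induced factor, was the one gene with an unadjusted p under 0.05. It had 13.5 and 9.82 CPM in the controls, against 2.64 and 7.52 CPM after knockdown, with -1.20 on the log2 scale (adjusted p = 1.00 in edgeR, standard error 0.42) that was -0.63 without NK shADAR1 replicate 1. ATF4, the main factor of the integrated stress response, had 546 and 445 CPM in the controls, against 368 and 424 CPM after knockdown. Its log2 fold change of -0.32 was -0.17 without NK scramble replicate 1. MYC was at 558 and 378 CPM in the controls, against 319 and 350 CPM after knockdown, and its log2 fold change of -0.48 became -0.18 without NK scramble replicate 1. These 3 factors thus lay lower in the same libraries as PMAIP1, without passing the test after adjustment, and whether they have a part in the PMAIP1 level was not tested.

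**Figure D5:**
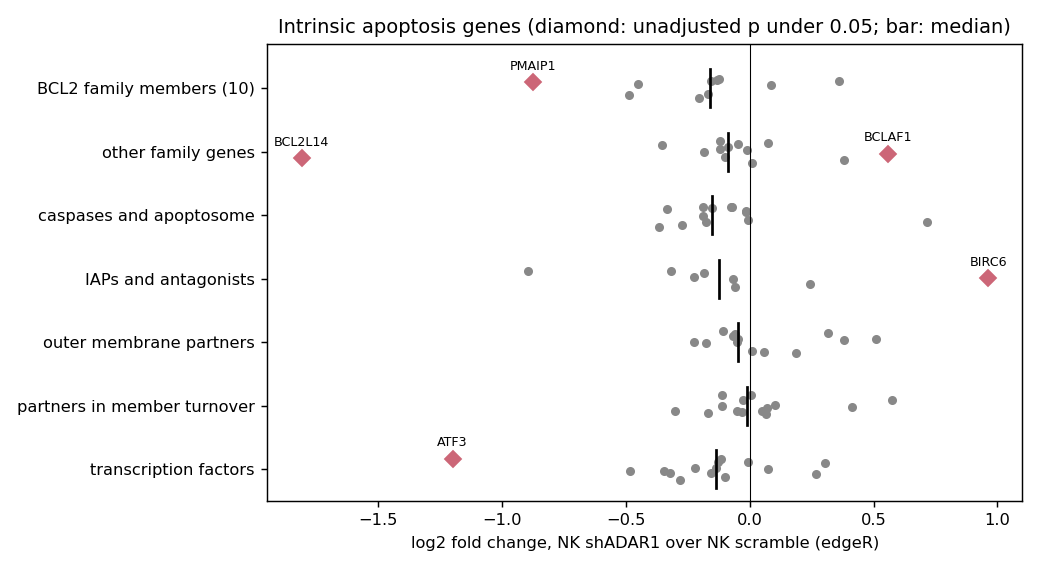
Log2 fold changes (edgeR, NK shADAR1 over NK scramble) of the 10 members and of the tested genes of the 6 surrounding lists, each point 1 gene, the vertical bar the median of its list and diamonds the genes with an unadjusted p under 0.05. Of the 10 members only PMAIP1 (-0.88) is a diamond, and ATF3 (-1.20) is the only one among the transcription factors.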

How the data were processed

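Oligo(dT)-selected mRNA of 4 NK-92 libraries was sequenced on an Illumina NovaSeq. The submitters' processing notes name fastp 0.18.0. The aligner, counter, genome build and annotation are not given in the sources used here. The authors deposited, per gene and library, an estimated count, of which 12.4% are not whole and none is scaled for depth, and an FPKM value. Of 20323 genes, 20301 matched a symbol.

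In R 4.3.3, counts were rounded, low genes were removed by edgeR 4.0.16 (filterByExpr, minimum count 10), and the rest were scaled by TMM and fitted with the quasi-likelihood test without covariates. P-values were adjusted by Benjamini-Hochberg over all 11810 tested genes. Calls required at least a 1.5-fold difference with an adjusted p below 0.05. The standard error is the log2 fold change divided by the square root of F, and 95% intervals use the fit's t distribution. The study's own tool, DESeq2 (version 1.42.0 here), was an alternative, as was limma 3.58.1 on log2(FPKM + 1) and log2(FPKM + 0.1) for genes with an FPKM of at least 1 in 2 libraries. FPKM served for levels between genes. The design text calls the replicates independent. P-values measure the spread between 2 libraries per group, with each gene's variance moderated by that of all tested genes (median total degrees of freedom 10.3 in edgeR).

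Named genes are ADAR, the 10 members and, per surrounding list, the 2 genes with the highest mean FPKM and the 2 with the smallest unadjusted p. CD3E, BIK, HRK, CASP6, DDIT3 and STAT3 fall outside this rule, being picked with their values in view, and some genes the rule names are not reported here. The members and lists were chosen with earlier results of these data known. Scripts were tested on simulated counts.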

Additional observations from a re-analysis of the deposited data

How the results depend on the processing

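Over 12 refitted alternatives, 0 members were called in each, and of 368 values of single named genes, 350 kept their direction without a call, 17 turned and 1 (XAF1) became a call. Without adjustment of p-values, 1 member and 213 genes were called. The replicate numbers do not mark a shared culture in the labels. The difference between replicates 1 and 2 correlated at r = 0.308 across genes between the groups, and with the replicate number as a block 13 genes were called and 0 members, with an adjusted p of 0.0765 for PMAIP1. With each library left out in turn, 1 to 47 genes were called, and the members without overlap numbered 5 to 9, where 60.2% to 67.4% of all tested genes did not overlap. Those fits assume that the lone library varies like the other group. The lowest of these gene counts came without NK shADAR1 replicate 2 and the highest without NK scramble replicate 1.

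With each library left out in turn, log2 fold changes ranged from -0.16 to 0.37 for BAX, -0.29 to 0.051 for BCL2L1, -0.33 to 0.038 for MCL1, -0.34 to 0.055 for BCL2A1, -0.096 to 0.11 for BECN1, -0.24 to 0.084 for BIRC5, -0.40 to 0.0055 for DIABLO, -0.35 to 0.10 for VDAC1 and -0.32 to 0.28 for VDAC3, none of them called. VDAC3 was -0.0019 with the replicate block and -0.0059 or -0.0060 by limma on FPKM with a pseudocount of 1 or 0.1. MCL1 was 0.029 by limma on FPKM with either pseudocount. Depth limits BCL2A1 and BCL2L14, and for the other members precision is set by 2 libraries per group.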

Other observations

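Ratios between members were formed per library from FPKM, after the members' values had been seen, and carry no test. PMAIP1 stood at 0.386 and 0.229 of MCL1, the protein that NOXA binds by preference, in NK scramble replicates 1 and 2 and at 0.145 and 0.178 in NK shADAR1 replicates 1 and 2. BCL2L11 differed the other way relative to MCL1, with 0.0854 and 0.0899 in the controls, against 0.111 and 0.118 after knockdown. The FPKM ratio of PMAIP1 to BCL2L11 was accordingly 4.51 and 2.55 in the controls, against 1.305 and 1.51 after knockdown. PMAIP1 thus exceeded BCL2L11 in every library. The CPM ratio of these genes is not scaled for length and compares libraries only. It was 1.92 and 1.05 in the controls, against 0.578 and 0.627 after knockdown. The MCL1 value of NK shADAR1 replicate 1 rests on its shorter implied transcript length. From CPM, which does not use that length, the ratio of PMAIP1 to MCL1 was 0.185 and 0.108 in the controls, against 0.0863 and 0.0859 after knockdown.

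BCL2L11 exceeded BCL2 in a single library, NK shADAR1 replicate 1, at a ratio of 1.19, against 0.505 in NK shADAR1 replicate 2 and 0.408 and 0.417 in NK scramble libraries. In the same library the ratio of BAX to BCL2 was 5.24, against 3.25 in the other knockdown library and 2.58 and 2.87 in the controls. The low BCL2 value of this library enters both ratios.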
